A study of Mus musculus with 6 samples.

Results

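The 9 genes Mcpt8, Prss34, Cpa3, Epx, Prg2, Fcer1a, Ms4a2, Hdc and Gzmb were chosen by symbol as proteases, receptors and granule genes of mast cells, basophils and eosinophils. All 9 of 9 were found among the 17691 genes of the deposited tables. The cells were erythroblasts of C57BL/6J mouse fetal liver, selected for lack of TER119, a surface antigen of later red cell precursors, and grown for 30 h in medium containing Epo (erythropoietin, the growth factor of the red cell lineage). The untreated group (3 libraries) had no addition, and the CDs group (3 libraries) received carbon dots made from Codonopsis pilosula, a medicinal plant, at 1 ug/ml. Every library therefore shared strain, tissue, selection and Epo, and no genotype is named for any of them. Gestational age, and whether equal numbers mark separate litters or cultures, are not given in the sources used here, so a p-value here reflects spread among these 6 libraries alone, which may be technical.

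Mast cells, basophils and eosinophils are granulocytes that store preformed mediators in cytoplasmic granules and arise from myeloid progenitors. Mast cells and basophils carry the high-affinity IgE receptor, whose crosslinking releases histamine and proteases. Eosinophils store cationic proteins and a peroxidase. None of these cells belongs to the red cell lineage, although both descend from blood stem and progenitor cells that the fetal liver houses.

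The genes were located on mouse genome build GRCm38.p6. Mcpt8, a serine protease of basophils, lies on chromosome 14 at 56082163 to 56085499. Gzmb, granzyme B, lies 173336 bases further along the same chromosome at 56258836 to 56262334, within the granzyme and chymase cluster. Prss34, a basophil serine protease, is on chromosome 17 at 25298394 to 25300168, and Cpa3, the carboxypeptidase A of mast cell granules, is on chromosome 3 at 20215616 to 20242209. The eosinophil genes Epx, the peroxidase, and Prg2, the major basic protein, are on chromosome 11 at 87863997 to 87875536 and on chromosome 2 at 84980461 to 84983632. Hdc, histidine decarboxylase, which makes histamine, is also on chromosome 2 at 126593659 to 126624025. The IgE receptor genes are Fcer1a, the alpha chain, on chromosome 1 at 173221269 to 173227232, and Ms4a2, the beta chain, on chromosome 19 at 11615517 to 11623790. Cpa3 overlaps the annotated genes Gm31320, Gm7428 and Mir7007, and Mcpt8 overlaps Mir6949. Nothing in the library protocol preserves strand, so overlapping genes cannot be told apart by their reads.

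Promoter sequence was available in the RefSeq table (build GRCm38.p6) for 8 of the 9 genes. The motif GATAA, the core bound by GATA factors, was searched on both strands in the 250 bases before each start listed in that table. It was found in 4 of 8 (Prss34, Cpa3, Fcer1a and Ms4a2), against 23% of 27025 promoters in the table. A listed start can lie inside the gene span given above. The windows of Mcpt8 and Hdc lay wholly within the span, and those of Cpa3, Fcer1a and Ms4a2 overlapped it. The promoters of 3 genes are printed 5′ to 3′ along the gene, because Cpa3 and Ms4a2 had levels that followed Gata2 across the libraries (values below) and Prss34 had the largest fitted difference; capitals mark GATAA or its reverse complement TTATC. They are Cpa3 at chr3:20242182-20242431 (minus strand), Ms4a2 at chr19:11623720-11623969 (minus strand) and Prss34 at chr17:25298144-25298393 (plus strand).
Cpa3: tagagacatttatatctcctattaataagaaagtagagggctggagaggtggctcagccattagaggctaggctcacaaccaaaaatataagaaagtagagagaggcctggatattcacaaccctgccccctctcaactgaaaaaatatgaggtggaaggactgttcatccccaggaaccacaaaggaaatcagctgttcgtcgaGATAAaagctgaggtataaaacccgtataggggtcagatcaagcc
Ms4a2: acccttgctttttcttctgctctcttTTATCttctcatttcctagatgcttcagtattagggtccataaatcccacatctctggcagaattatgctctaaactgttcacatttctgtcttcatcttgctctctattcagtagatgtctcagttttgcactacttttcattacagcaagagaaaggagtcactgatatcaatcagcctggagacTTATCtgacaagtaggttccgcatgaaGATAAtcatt
Prss34: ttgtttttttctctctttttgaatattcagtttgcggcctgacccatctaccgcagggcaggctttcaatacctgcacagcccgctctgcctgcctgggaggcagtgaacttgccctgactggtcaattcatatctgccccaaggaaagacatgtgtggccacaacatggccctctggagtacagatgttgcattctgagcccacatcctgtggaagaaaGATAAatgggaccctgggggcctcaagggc
The match lay 45 bases before the start in Cpa3 and 30 bases before it in Prss34. Ms4a2 held 3 matches, at 224, 37 and 10 bases, of which those at 37 and 10 lay inside its gene span. The RUNX motif TGTGGT was present in 4 of 8 promoters against 14.2% of the table, and the E-box CANNTG in 7 of 8 against 66%. No promoter of the set held the ETS motif GGAAGT (20% of the table) or the STAT motif TTCNNNGAA (7.18%), and 1 of 8, that of Fcer1a, held the C/EBP motif TTGCNNAA (9.55%). These are letter matches in a short window and say nothing about binding.

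Depth was even, with 17695997 to 20066581 expected counts in a library (1.13 between the deepest and the shallowest). Of the erythroid markers of the labelled cell type, 14 of 14 were detected, and they summed to between 92630 and 119200 CPM (counts scaled to a common library total) in each library. Markers of other cells were detected beside them, and the 2 libraries numbered 3 stood apart. Macrophage markers (15 of 15 in the table) summed to 85.5, 205 and 2092 CPM in untreated 1, 2 and 3 and to 233, 836 and 2956 CPM in CDs 1, 2 and 3. Neutrophil and promyelocyte markers (15 of 15) summed to 314, 950, 2353, 540, 1506 and 2438 CPM in the same order. Cytotoxic lymphocyte markers (14 of 15) summed to at most 18.9 CPM, with Ncr1 at 0 in every library and 11 of the 14 under 1 CPM throughout. Libraries with the same number deviated together from their group means (correlations over genes 0.938, 0.439 and 0.954), so the number was treated as pairing them. Exchanging CDs 1 and CDs 2 also gave correlations above 0.1: 0.233 for untreated 1 with CDs 2 and 0.777 for untreated 2 with CDs 1. Untreated 2 thus followed CDs 1 more closely than CDs 2, and the pairing within numbers 1 and 2 is uncertain.

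The 9 genes together contributed 59.6, 133 and 396 CPM in untreated 1, 2 and 3 and 86.9, 189 and 344 CPM in CDs 1, 2 and 3. Their share was thus at most 0.0404% of all counts, in untreated 3. The difference between libraries of 1 group was larger than the difference between groups, and the libraries numbered 3 were highest and those numbered 1 lowest in both groups. In bulk RNA, fewer cells of a type and less RNA per cell cannot be told apart. The sums of the neutrophil and macrophage markers took the same order over the libraries within each group, and their part in the levels of the 9 genes was not tested.

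**Figure D1:**
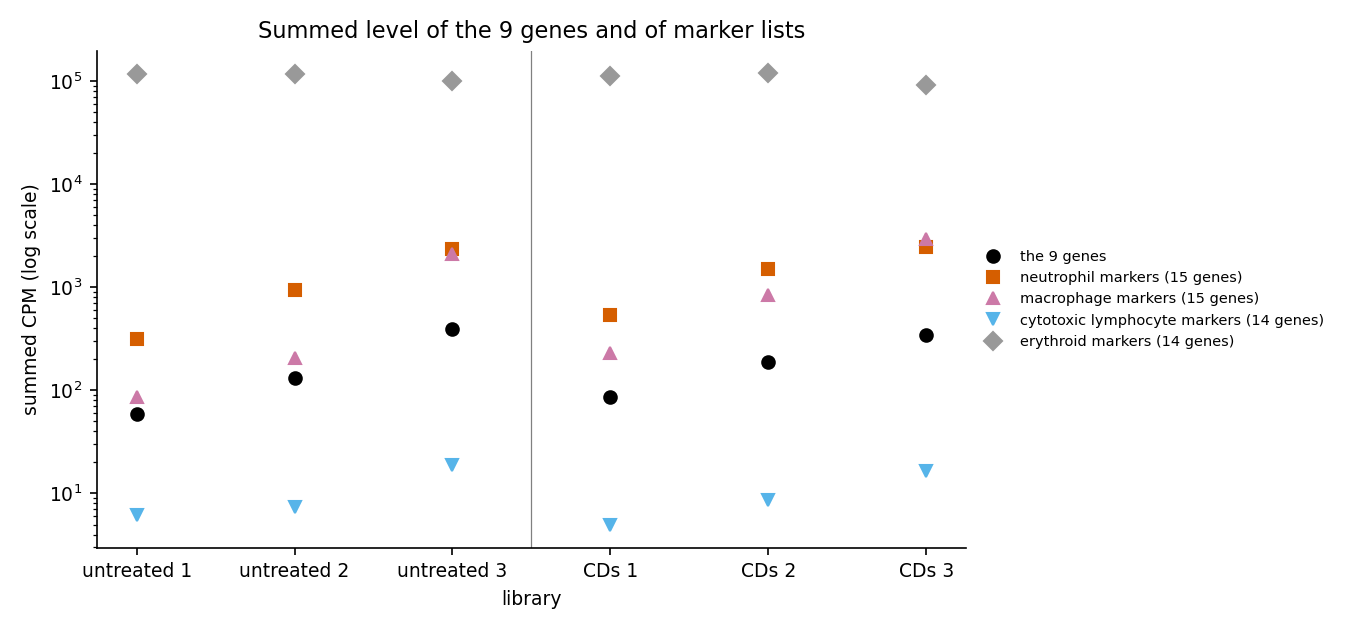
Summed CPM (log axis) of the 9 genes, and of 4 marker lists in each of the 6 libraries; each point is 1 library's sum. The 9 genes run from 59.6 CPM in untreated 1 to 396 CPM in untreated 3, far below the erythroid markers.

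Per length, in the authors' FPKM, Prg2 was the most abundant of the 9 in every library and Fcer1a the least. Prg2 stood above 84.6% of all genes in untreated 1 and above 97.5% in untreated 3. The mean untreated levels were 82.6 ± 69.4 FPKM for Prg2, 29.9 ± 36.1 for Mcpt8, 20.0 ± 18.4 for Cpa3, 16.4 ± 15.7 for Hdc and 7.80 ± 7.22 for Epx (SD, n = 3). Lower levels were 5.06 ± 6.02 FPKM for Prss34, 3.16 ± 1.14 for Gzmb, 2.2 ± 1.66 for Ms4a2 and 0.20 ± 0.26 for Fcer1a (SD, n = 3). Down to Ms4a2, each neighbour in this order differed by less than the larger of the 2 SDs. The order also moved between libraries: Mcpt8 ranked below Cpa3 and Hdc in untreated 1 and above both in untreated 2 and 3.

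Within the untreated group, the level in library 3 over that in library 1 was 21.8-fold for Mcpt8, and 2.61% of all tested genes had a larger ratio. The ratio was 10.8 for Prss34, 7.73 for Hdc, 5.83 for Cpa3, 5.71 for Epx, 5.59 for Prg2, 4.82 for Ms4a2 and 2.05 for Gzmb, while the median over all genes was 0.996. In the CDs group the same ratio was 12.2 for Mcpt8, 7.35 for Prss34 and 1.54 for Gzmb. By this ratio Mcpt8 and Prss34 differed most and Gzmb least in both groups, although Gzmb was highest in CDs 2, which the ratio does not use.

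**Figure D2:**
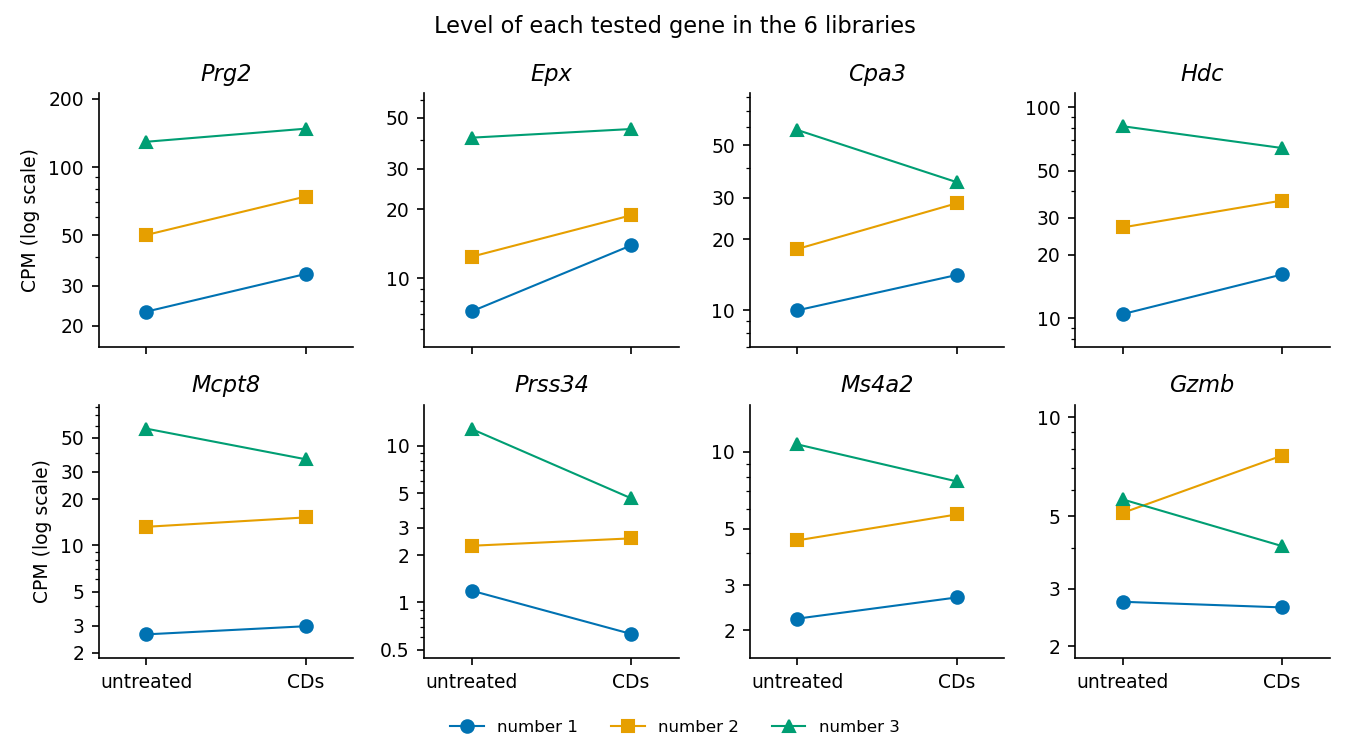
CPM (log axis, own scale per panel) of the 8 tested genes in untreated and CDs libraries; each point is 1 library and a line joins libraries of the same number. Libraries numbered 3 are highest in every panel except CDs in the Gzmb panel, and CDs lie above untreated for all 3 numbers in the Prg2 and Epx panels and in no other.

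The question the design poses is what CDs do to these erythroblast cultures. None of the 8 genes with enough counts to test was called by edgeR's quasi-likelihood test over all 6 libraries, in which 0% of 12283 genes had a Benjamini-Hochberg adjusted p under 0.05. At an unadjusted p under 0.05 it held 0 of the 8 and 127 of all genes (1.03%). The 8 adjusted p-values from edgeR were 0.994 to 0.999. DESeq2 without the pair term called 0 of the 8 against 0.114% of genes. The groups overlapped for each of the 8 (0 of 8 apart, against 4.70% of all genes, and 2.37% apart with CDs higher). The median fitted log2 fold change of the 8 was -0.07, beside 0.01 over all genes tested. That median was 0.96 without untreated 3, -0.45 without CDs 3 and 0.42 without both. It was 0.27 without CDs 1, and stayed below 0 without untreated 1, untreated 2 or CDs 2 (-0.49, -0.26 and -0.21). With all 6 libraries it was 0.07 in edgeR with the pair term. In limma-voom it was 0.10 without that term and -0.0081 with it. Its sign thus depended on the libraries and on the model.

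The eosinophil granule genes Prg2 and Epx were higher with CDs in every pair. Prg3, a relative of Prg2 in eosinophil granules that is not among the 9, was not: its pair log2 ratios were 1.21, 0.66 and -0.25, on levels of 1.08, 3.02 and 10.7 CPM untreated and 2.52, 4.78 and 9.02 CPM with CDs. The eosinophil ribonuclease genes Ear1, Ear2 and Ear6, also outside the 9, were higher in every pair, as were 30.2% of all genes. Their pair log2 ratios were 0.23, 0.42 and 0.16, then 0.34, 0.59 and 0.05, then 0.84, 0.61 and 0.33. Other eosinophil genes outside the 9 were mixed. Siglecf (1.03, 0.61 and 0.42) was higher in every pair. Il5ra (0.07, -0.09 and -0.15), Alox15 (0.50, 0.33 and -0.06) and Ccr3 (1.15, 0.44 and -0.50, at most 1.37 CPM) were not. Prg2, the most abundant of the 9, measured 23.1, 50.2 and 129 CPM in untreated 1, 2 and 3 and 33.8, 74.2 and 147 CPM in CDs 1, 2 and 3. Each CDs library was above the untreated library of its number, while the groups overlapped widely. The pair ratios were 1.46, 1.48 and 1.14, each with a 95% counting interval above 1 (1.08 to 1.2 in pair 3), which covers counting error only. The edgeR log2 fold change was 0.33 ± 0.79 (SE, adjusted p = 0.994). With the pair as a block it was 0.43 ± 0.09 (SE), with a Benjamini-Hochberg adjusted p of 0.0916 from edgeR. DESeq2 with the block gave 0.41 ± 0.14 (SE, adjusted p = 0.0291). That DESeq2 fit called 11.4% of genes, and Prg2 was its 1 call among the 8. limma-voom with the block called 0 of the 8 and 0.0570% of genes. Over all alternatives the adjusted p of Prg2 from edgeR, DESeq2 and limma ran from 0.0010 to 1.00.

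Epx measured 7.18, 12.4 and 41.0 CPM in untreated 1, 2 and 3 and 13.9, 18.8 and 44.7 CPM with CDs. Again each CDs library was above its untreated counterpart, and the groups overlapped. The pair ratios were 1.94, 1.51 and 1.09, the last with a counting interval that held 1 (0.992 to 1.2). In edgeR the log2 fold change was 0.35 ± 0.78 (SE, adjusted p = 0.994), and 0.52 ± 0.17 (SE, adjusted p = 0.128) with the block. Being higher in 3 of 3 pairs, which 2 of the 8 genes were, was also found in 30.2% of all genes, and being lower in 3 of 3, which 0 of the 8 were, in 26.2%.

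Among the mast cell and basophil proteases, levels were higher with CDs in the pairs numbered 1 and 2 and lower in pair 3 for Cpa3 and Mcpt8. Cpa3 measured 9.97, 18.2 and 58.1 CPM untreated and 14.1, 28.4 and 34.9 CPM with CDs. The pair ratios were 1.41, 1.56 and 0.601, each beyond its counting interval, and so in opposite directions. The edgeR log2 fold change was -0.16 ± 0.72 (SE, adjusted p = 0.994) and 0.10 ± 0.32 (SE, adjusted p = 0.857) with the block. Both standard errors exceed the difference.

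Mcpt8 measured 2.63, 13.2 and 57.4 CPM untreated and 2.98, 15.2 and 36.3 CPM with CDs. Pairs 1 and 2 were within counting error (ratios 1.13 and 1.15), and pair 3 was lower at 0.632 (interval 0.576 to 0.694). The edgeR log2 fold change was -0.43 ± 1.29 (SE, adjusted p = 0.994) and -0.17 ± 0.21 (SE, adjusted p = 0.618) with the block. Prss34, the least abundant of the 3 proteases, measured 1.19, 2.30 and 12.8 CPM untreated and 0.629, 2.57 and 4.63 CPM with CDs. It rests on few reads, 23, 45 and 262 expected counts untreated and 11, 51 and 96 with CDs. The pair ratios were 0.530, 1.11 and 0.362, of which the last alone lay beyond counting error (0.283 to 0.459). Prss34 had the lowest fitted value of the 8, -1.05 ± 1.11 in edgeR (SE, adjusted p = 0.994), and -0.81 ± 0.36 (SE, adjusted p = 0.205) with the block.

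Hdc measured 10.5, 27.0 and 81.1 CPM untreated and 16.1, 36.1 and 64.0 CPM with CDs. Its pair ratios were 1.54 and 1.34 in pairs 1 and 2 and 0.789 in pair 3, each beyond counting error. The edgeR log2 fold change was -0.03 ± 0.85 (SE, adjusted p = 0.999) and 0.20 ± 0.22 (SE, adjusted p = 0.583) with the block. The sign thus depended on the model, as it did for Cpa3.

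The IgE receptor chains were low. Ms4a2 measured 2.22, 4.50 and 10.7 CPM untreated and 2.69, 5.68 and 7.67 CPM with CDs. Pairs 1 and 2 were within counting error (1.21 and 1.26), and pair 3 was 0.717 (interval 0.580 to 0.883). Fcer1a, the alpha chain that binds IgE, had 2, 0 and 10 expected counts untreated and 1, 5 and 10 with CDs, too few to test. The 0 in untreated 2 allows a level of up to 0.153 CPM at a limit of 3 counts, and the CDs pair ratio in pair 3 was 0.987 with an interval of 0.369 to 2.64. The edgeR log2 fold change of Ms4a2 was -0.12 ± 0.68 (SE, adjusted p = 0.994). With the block it was -0.0037 ± 0.22 (SE, adjusted p = 0.993).

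Gzmb, a cytotoxic granule protease that mast cells can also make, measured 2.74, 5.12 and 5.62 CPM untreated and 2.63, 7.65 and 4.05 CPM with CDs. Its expected counts were low, at 53, 100 and 115 untreated and 46, 152 and 84 with CDs. Its pair ratios were 0.961, 1.5 and 0.721, the first with an interval that held 1. The edgeR log2 fold change was 0.09 ± 0.50 (SE, adjusted p = 0.994) and 0.03 ± 0.24 (SE, adjusted p = 0.938) with the block. Unlike the other tested genes, Gzmb was not highest in CDs 3 among the CDs libraries. Across the 6 libraries its correlation with the others was also the weakest (Pearson r of log2(CPM + 0.5) from 0.435 to 0.697), while Ms4a2 and Hdc were the most alike (0.993).

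**Figure D3:**
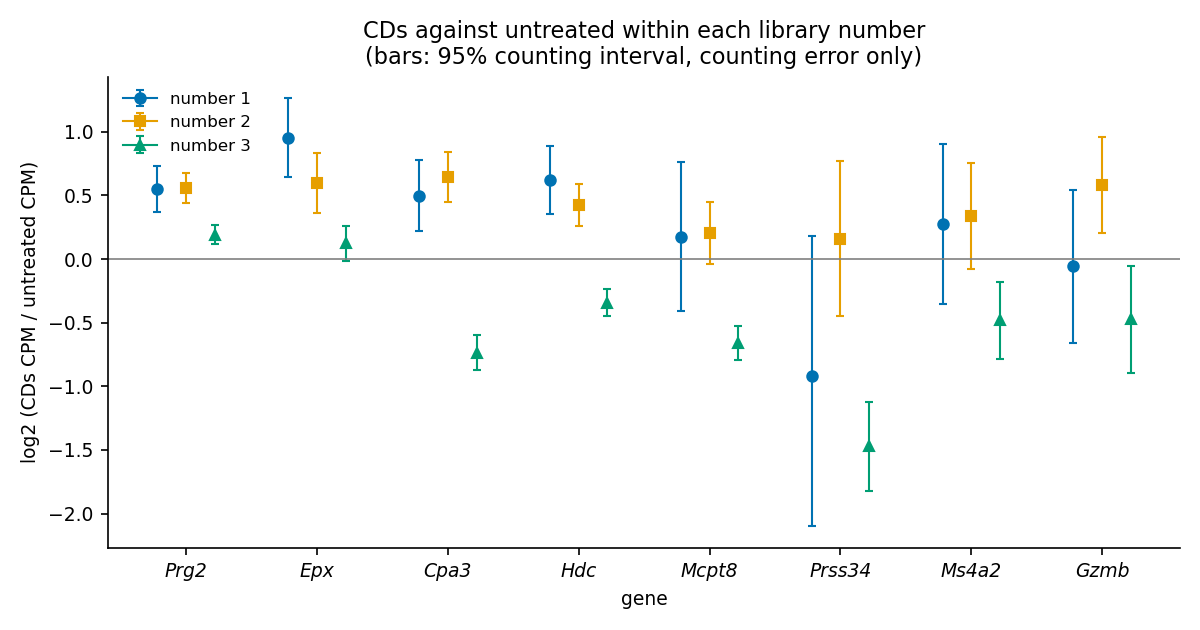
Log2 ratio of CDs over untreated CPM for each tested gene in each numbered pair, with 95% counting intervals. Points for pair 3 fall below 0 for 6 of the 8 genes, and pair 2 lies above 0 for all 8.

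By number, 6 of the 8 genes were higher with CDs in pair 1 (56.3% of all genes), 8 of 8 in pair 2 (49.7%) and 2 of 8 in pair 3 (49.6%). The median log2 ratio of the 8 was 0.39, 0.49 and -0.48 in pairs 1, 2 and 3, beside 0.04, -0.0029 and -0.0044 for all genes. Of the 8, 4 (Mcpt8, Cpa3, Ms4a2 and Hdc) were higher in pairs 1 and 2 and lower in pair 3, a pattern of 7.10% of all genes. With 1 library of each kind per pair, the difference between pairs could not be tested. Without the libraries numbered 3, and with the block, the edgeR fit called 4 of the 8 (15.2% of 12089 genes, 12.2% higher). These were Prg2 at 0.54 ± 0.10 (SE, adjusted p = 0.0010), Epx at 0.74 ± 0.16 (0.00399), Cpa3 at 0.56 ± 0.14 (0.0109) and Hdc at 0.49 ± 0.13 (0.0132), all higher with CDs. That fit has 1 residual degree of freedom and was chosen after the data had been seen, and the 5 calls among all genes (0.0407%) with all 3 pairs in edgeR included none of the 8. Without the block, the same 4 libraries gave 0 calls among the 8 and 0 among all genes in edgeR, with 970 genes and 0 of the 8 at an unadjusted p under 0.05.

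**Figure D4:**
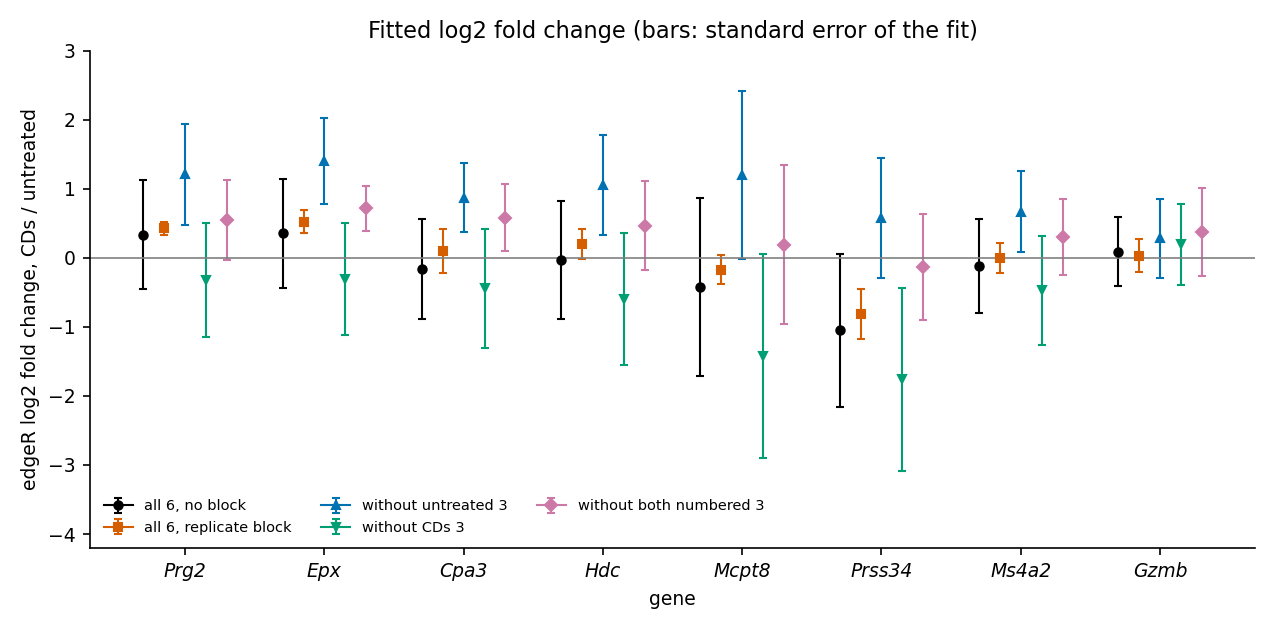
edgeR log2 fold change of CDs over untreated for the 8 tested genes under 5 choices of libraries and block; bars are the standard error. Values without untreated 3 lie above 0 for all 8 genes, and those without CDs 3 lie below 0 for all but Gzmb.

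The mast cell and basophil genes, without Gzmb, summed to 26.6, 65.1 and 221 CPM untreated and 36.6, 88.2 and 148 CPM with CDs. Epx and Prg2 summed to 30.3, 62.7 and 170 CPM untreated and 47.7, 93.0 and 192 CPM with CDs. Divided by Prg2 in the same library, a ratio chosen after the values were seen, Mcpt8, Prss34 and Ms4a2 were lower with CDs in 3 of 3 pairs. So were 62.9% of all tested genes, since Prg2 itself was higher with CDs in every pair, and nothing is read from that direction.

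The genes most like each member across the 6 libraries were sought among 10983 tested genes by Pearson's r of log2(CPM + 0.5), given as a description because all values share the same libraries and depth. Cpa3 was most like Gata2 (r = 0.995), Alox5 (0.995) and Itga1 (0.993). Ms4a2 was most like Btbd2 (0.997), Gata2 (0.995) and Akap7 (0.994). Gata2, a transcription factor of blood progenitors and mast cells, measured 17.3, 35.0 and 86.8 CPM untreated and 24.2, 45.8 and 57.8 CPM with CDs. Its pair log2 ratios of 0.48, 0.39 and -0.59 had the signs of those of Cpa3 and Ms4a2, and Alox5, the 5-lipoxygenase of leukotriene synthesis, had 0.63, 0.40 and -0.55. Hdc (0.62, 0.42 and -0.34) and Mcpt8 (0.18, 0.20 and -0.66), whose promoter windows held no GATAA, had these signs too. Prss34, whose window held it, had -0.92, 0.16 and -1.47. Whether GATA factors act on any of these genes was not tested. Mcpt8 was most like Pcdhgc4 (0.998), Epx like Errfi1 (0.9995), Prg2 like Ccdc125 (0.999), Hdc like Grm6 (0.999), Prss34 like Adtrp (0.993) and Gzmb like Plppr3 (0.963).

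Other genes of the same cells were taken from 7 lists. No gene of any list was called by edgeR over all 6 libraries, with or without the block. Counts below come from 2 fits. DESeq2 with the block called 8.98% of the 10616 genes with an adjusted p higher. The list totals also hold tested genes whose DESeq2 adjusted p was missing, so their shares are not on the same base. EdgeR with the block on pairs 1 and 2 alone called 12.2% of all genes higher. In the first of these fits, 8 of 11 tested macrophage markers were called higher and 1 lower, and 4 of 15 neutrophil markers were called higher and 0 lower. In the fit on pairs 1 and 2, 7 of 11 macrophage markers were called higher and 1 lower, and 13 of 15 neutrophil markers higher. Their part in the values of the lists was not tested. The macrophage markers Csf1r, Cd68 and Adgre1 had pair log2 ratios of 1.56, 1.97 and 0.46, of 0.98, 1.88 and 0.42, and of 1.77, 2.07 and 0.54. Of the 15 macrophage markers, 4 were under 1 CPM in every library.

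Over all genes tested, 6372 of 12283 had a fitted log2 fold change above 0 in edgeR (median 0.01). In the IgE receptor signalling list 22 of 22 tested genes did (median 0.45). DESeq2 with the block called 10 of them, all higher (Dok2, Inpp5d, Lcp2, Lyn, Plcg2, Prkcb, Prkcd, Ptpn6, Syk and Vav1). On pairs 1 and 2 alone, 13 of the 22 were called, all higher. Fcer1g, the gamma chain that the IgE receptor shares with other Fc receptors and that macrophages also express, measured 18.1, 50.3 and 449 CPM untreated and 38.5, 172 and 558 CPM with CDs. It was not called by edgeR (0.57 ± 1.43, SE, adjusted p = 0.994). Nor was it called by DESeq2 with the block (1.04 ± 0.40, SE, adjusted p = 0.0719). Among the most abundant genes of the list, DESeq2 with the block gave 0.91 ± 0.22 (SE, adjusted p = 0.00174) for Ptpn6, the phosphatase SHP-1. It gave 0.64 ± 0.15 (SE, adjusted p = 0.000733) for Inpp5d, the phosphatase SHIP1, and 0.67 ± 0.20 (SE, adjusted p = 0.0108) for Prkcd, a protein kinase C.

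Of the surface receptors 21 were tested, with a median of 0.30 in edgeR. DESeq2 with the block called 7 higher and 0 lower (C5ar1, Crlf2, Csf2rb, Csf2rb2, Il13ra1, Il3ra and Il4ra), and on pairs 1 and 2 alone 10 of 20 were called, all higher. Il4ra, the IL-4 receptor alpha chain, was 17.1, 22.3 and 128 CPM untreated and 31.9, 65.8 and 217 CPM with CDs (1.05 ± 0.18, SE, DESeq2 adjusted p = 3.59e-06). Csf2rb, the shared beta chain of the IL-3, IL-5 and GM-CSF receptors, was 36.5, 94.8 and 359 CPM untreated and 70.3, 212 and 400.3 CPM with CDs. It shares near-identical sequence with Csf2rb2, so how reads were split between them is uncertain. Il3ra, the IL-3 receptor alpha chain, had pair log2 ratios of 0.94, 0.99 and 0.25, and Csf2ra, the GM-CSF receptor alpha chain, 0.23, 1.18 and 0.13. Kit and Il1rl1 were not called by DESeq2 with the block. Kit, the stem cell factor receptor, was 9.35, 11.2 and 15.4 CPM untreated and 12.2, 17.7 and 15.2 CPM with CDs. Il1rl1, the IL-33 receptor, was 10.2, 16.4 and 34.8 CPM untreated and 10.5, 18.2 and 25.3 CPM with CDs, lower in pair 3 as Cpa3 and Hdc were.

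Of the transcription factors 16 of 22 had a fitted value above 0 and 6 below in edgeR, beside 6372 and 5911 of 12283 genes. The 4 most abundant, which erythroblasts also express, all lay below 0 and were not called: Zfpm1 at -0.18 ± 0.33, Gata1 at -0.18 ± 0.34, Tal1 at -0.15 ± 0.24 and Ikzf1 at -0.02 ± 0.13 (SE). DESeq2 with the block called 6 of 22 higher and 0 lower (Cebpa, Id1, Id2, Irf8, Spi1 and Trib1). Of these, Spi1, Irf8 and Cebpa also act in macrophages and other myeloid cells. On pairs 1 and 2 alone, 10 of 22 were called, all higher.

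Granule matrix and cationic proteins were tested for 15 of 15 in the table, with a median of 0.23 in edgeR. DESeq2 with the block called 5 higher and 0 lower (Ear6, Mpo, Ndst1, Rab27a and Rab27b), and on pairs 1 and 2 alone 8 of 15 were called, all higher. Mpo, myeloperoxidase of neutrophil granules, measured 120, 194 and 319 CPM untreated and 174, 344 and 332 CPM with CDs. The exocytosis genes Stxbp2, Vamp8 and Unc13d, the next most abundant, had log2 fold changes of 0.03 ± 0.13, -0.11 ± 0.10 and -0.04 ± 0.18 (SE) in edgeR and were not called. Ear6 belongs to a family of near-identical ribonuclease genes, so its counts are uncertain.

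Histamine and eicosanoid genes were called higher for 2 of 11 in DESeq2 with the block (Alox5ap and Ptgs1), and for 6 of 11 on pairs 1 and 2 alone. The share over all genes with an adjusted p was 8.98% in the first of these fits. Lta4h and Hpgds, enzymes of leukotriene and prostaglandin synthesis, had edgeR log2 fold changes of -0.02 ± 0.11 and 0.31 ± 0.46 (SE) and were not called. Cytokine genes were called higher for 4 of 10 in DESeq2 with the block (Ccl3, Ccl4, Ccl6 and Ccl9, which macrophages also make), and for 7 of 9 on pairs 1 and 2 alone. Ccl2, a further abundant chemokine of the list, was not called by DESeq2 with the block (1.04 ± 0.48, SE, adjusted p = 0.157).

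Mast cell and granule proteases beyond the 9 were mostly at the limit of measurement. Of 11 in the table, 8 were under 1 CPM in every library and 2 were tested. Cma1, the mast cell chymase, ranged from 0 to 1.32 CPM, and Gzmc, a granzyme, from 0 to 0.530 CPM. Ctsg, cathepsin G, which neutrophil precursors also make, measured 5.48, 11.3 and 25.6 CPM untreated and 7.32, 21.4 and 23.9 CPM with CDs. Prss50 measured 40.6, 34.0 and 12.4 CPM untreated and 34.5, 25.9 and 6.12 CPM with CDs. It was lower with CDs in 3 of 3 pairs, as were 26.2% of all genes. Which cells its reads came from was not tested, so it is not read as a mast cell protease. Neither Ctsg nor Prss50 was called in DESeq2 with the block. On pairs 1 and 2 alone, edgeR with the block called 1 of these 2 higher and 1, Prss50, lower.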

How the data were processed

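Polyadenylated RNA of 6 libraries (3 untreated, 3 with CDs) was sequenced on a BGIseq500. The authors deposited a table of expected counts per gene, of which 30.1% were not whole, and a table of FPKM. Tools listed in the submitters' processing notes are RSEM 1.2.12, HISAT2 2.0.4, DESeq2 1.4.5 and Bowtie2 2.2.5, on build GRCm38.p6; which did what is not given in the sources used here. The FPKM unit is inferred from the values: counts divided by FPKM gave a steady length per gene (median deviation 0.0054 on the log2 scale over 8849 genes).

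Expected counts were rounded and tested with edgeR 4.0.16 (quasi-likelihood, TMM scaling, minimum count 10 in filterByExpr) under R 4.3.3, with Benjamini-Hochberg adjustment over 12283 genes and a threshold of 0.05. CPM uses the TMM-scaled totals. Alternatives were DESeq2 1.42.0, limma 3.58.1 (voom, and log2 of FPKM plus 0.1 or 1), other scalings and filters, the replicate number as a block, and each library left out. An adjusted p that DESeq2 gave as missing stayed missing. The scripts were tested on simulated data. At depths of 17695997 counts or more, counting intervals cover counting error only. They are wide for Fcer1a, Prss34, Ms4a2 and Gzmb, and for Mcpt8 in pair 1. Same-numbered libraries were taken as pairs because their deviations correlated above 0.1, not because a label says so.

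The 9 genes, the gene lists and the tests were chosen with earlier results of these data known. By rule, named genes were all 9, the 4 genes of each of the 7 lists with the highest mean untreated CPM, and Kit, Gata1, Gata2, Fcer1g, Il3ra, Csf2rb and Il1rl1. Of the marker lists, only macrophage genes are named by rank of level. The erythroid, neutrophil and cytotoxic lymphocyte lists are given as sums or counts. The B lineage, plasmacytoid dendritic cell, megakaryocyte, endothelial and hepatocyte lists are not reported here. Prg3, Ear1, Ear2, Siglecf, Il5ra, Ccr3, Alox15 and genes called by DESeq2 with the block that fall outside the rule were chosen after their values were seen.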

Additional observations from a re-analysis of the deposited data

How the results depend on the processing

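The count of genes called moved from 0 to 14 with DESeq2, 5 with edgeR and the replicate block, 1210 with DESeq2 and the block, 7 with limma-voom and the block, and 1835 with edgeR and the block on pairs 1 and 2 alone. Members called moved from 0 to 1 (DESeq2 with the block) and 4 (pairs 1 and 2 with the block). Leaving out 1 library at a time called 0 genes in every case. Signs of log2 fold changes turned as follows, and the cause was not tested. Without both libraries numbered 3 they were 0.19 for Mcpt8, 0.58 for Cpa3, 0.30 for Ms4a2 and 0.47 for Hdc, and with the block as well 0.18, 0.56, 0.29 and 0.49. limma-voom gave 0.14 for Cpa3, 0.054 for Ms4a2 and 0.25 for Hdc, and 0.067 for Hdc with the block. The block gave 0.10 for Cpa3 and 0.20 for Hdc in edgeR, and 0.11, 0.20 and, for Ms4a2, 0.0043 in DESeq2. On log2(FPKM + 0.1) Cpa3 was 0.17 and Hdc 0.25, and on log2(FPKM + 1) they were 0.15 and 0.22. Leaving out 1 library ran from -0.56 to 0.87 for Cpa3, -0.31 to 1.4 for Epx, -0.44 to 0.38 for Gzmb, -0.60 to 1.05 for Hdc, -1.42 to 1.2 for Mcpt8, -0.51 to 0.67 for Ms4a2, -0.32 to 1.21 for Prg2 and -1.76 to 0.58 for Prss34. Few counts limit Fcer1a, and pairs rest on 1 library a side.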
